A study of Oryza sativa Japonica Group with 27 samples.

Results

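The LHCA genes of rice, LHCA1 to LHCA6, encode the light-harvesting proteins of photosystem I. They were followed here as 6 of the 35679 loci in a set of Structure-seq2 count tables, chosen by locus identifier: OS06T0320500 (LHCA1), OS07T0577600 (LHCA2), OS02T0197600 (LHCA3), OS08T0435900 (LHCA4), OS02T0764500 (LHCA5) and OS09T0439500 (LHCA6). The identifiers place LHCA1 on chromosome 6, LHCA2 on chromosome 7, LHCA3 and LHCA5 on chromosome 2, LHCA4 on chromosome 8 and LHCA6 on chromosome 9. They own 11 of the 42132 transcripts listed, which were summed per locus. The tables carry no gene names, so the names rest on these identifiers and could not be checked against the counts. Structure-seq2 treats living tissue with dimethyl sulfate (DMS), which methylates unpaired adenine and cytosine, and sequences the cDNA ends where reverse transcription stopped, so a count is a cDNA end assigned to a transcript. The series tested changes of protocol, and the question here was whether the LHCA transcripts kept the same share of the library under them.

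All libraries came from poly(A)-selected RNA of shoots of the japonica cultivar Nipponbare at 14 days, reverse transcribed with SuperScript III. The biotin variation adds biotin to the cDNA and recovers it on streptavidin after reverse transcription and after ligation. It had 2 libraries with DMS (+DMS) and 2 without it (-DMS). Each of 6 further kinds had 1 library, all -DMS: biotin only (biotin with gel purification on PAGE), Ex Taq (another PCR enzyme in place of Q5), Circligase (in place of T4 DNA ligase), low RT denaturation (at 65 °C and salt-free in place of 90 °C and salt), low RT reaction (at 50 °C in place of 55 °C) and agarose (a triple agarose final purification in place of PAGE). The standard protocol, with PAGE throughout, had 2 libraries +DMS and 2 -DMS. Of these 14 libraries, 13 were read with a custom sequencing primer besides the standard one, and the Circligase library was not. The labels tie no replicate to a plant of its own. The spread behind the p-values for DMS and protocol is that between libraries, which may be technical. Behind the p-values for the primer it is the spread between readings of the same libraries.

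In plants the LHCA proteins bind chlorophyll and carotenoids and sit in a belt around the photosystem I core, to which they pass excitation energy. In Arabidopsis, LHCA1 pairs with LHCA4 and LHCA2 pairs with LHCA3, and these 4 make up the main belt. LHCA3 and LHCA4 carry the chlorophylls that absorb at the longest wavelengths. LHCA5 and LHCA6 are scarce in Arabidopsis and link photosystem I to the chloroplast NDH complex, which takes part in cyclic electron flow. The genes are in the nucleus and their mRNAs carry poly(A) tails.

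The tissue label was checked against the Rubisco small subunit loci, which had medians of 24368, 6904 and 2603 CPM (counts relative to the library total), and against a root marker locus, RCc3, which had 0 counts in every library. Library totals with the standard primer ran from 29777 to 410068 counts, so that 1 count was worth 20.03 CPM in the shallowest library and 2.41 CPM in the deepest, after scaling by TMM factors. The shallowest, the biotin variation -DMS replicate 1, stood apart, with a TMM factor of 1.68 where the other 13 libraries had 0.814 to 1.11. In bulk RNA of a shoot, fewer cells of a type and less RNA per cell cannot be told apart. The groups here differ in DMS or library protocol, so a lower share of cDNA ends need not stand for either. All CPM values below are with the standard primer unless stated. Where groups of libraries are said not to overlap, or to lie above or below one another, this describes the LHCA loci alone. The share of all loci whose groups were apart in the same way was not counted.

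LHCA3 and LHCA4 split the libraries most plainly. The standard -DMS libraries and 5 of the 6 single libraries held LHCA3 at 3957 CPM or above, and each of the 6 libraries with DMS or streptavidin held it at 1256 CPM or below. LHCA3 had 1256 and 957 CPM in the biotin variation +DMS, 581 and 546 CPM in the biotin variation -DMS, 908 and 662 CPM in the standard protocol +DMS, and 4157 and 4068 CPM in the standard protocol -DMS. The standard -DMS libraries lay above the other 6 with no overlap. LHCA4 had 4035 and 2431 CPM in the biotin variation +DMS, 1002 and 2104 CPM in the biotin variation -DMS, 3006 and 2957 CPM in the standard protocol +DMS, and 9284 and 10175 CPM in the standard protocol -DMS. Its standard -DMS libraries again lay above the rest, while the biotin variation +DMS and the standard +DMS overlapped.

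For LHCA3 the order of the groups was therefore biotin variation -DMS (563 ± 25.1 CPM), standard +DMS (785 ± 174), biotin variation +DMS (1107 ± 212) and standard -DMS (4113 ± 62.5; SD, n = 2 each). The ranges of these neighbours did not overlap with the standard primer, and the gap below standard -DMS was many times the spread. In the custom-primer readings the biotin variation -DMS (387 and 548 CPM) overlapped the standard +DMS (507 and 431 CPM). The standard -DMS libraries stayed above the other groups in those readings. For LHCA4 the order was biotin variation -DMS (1553 ± 780 CPM), standard +DMS (2982 ± 34.3), biotin variation +DMS (3233 ± 1134) and standard -DMS (9729 ± 630; SD, n = 2 each). The standard +DMS and biotin variation +DMS libraries of LHCA4 lay within each other's spread, and the biotin variation -DMS libraries lay below both without overlap.

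LHCA1 and LHCA2, the partners in those pairs, followed another order. LHCA1 had 1629 and 1359.5 CPM in the biotin variation +DMS, 180.3 and 822 CPM in the biotin variation -DMS, 816 and 809 CPM in the standard protocol +DMS, and 1342 and 1699.5 CPM in the standard protocol -DMS. LHCA2 had 6241 and 4604 CPM in the biotin variation +DMS, 561 and 2388 CPM in the biotin variation -DMS, 1787 and 2521 CPM in the standard protocol +DMS, and 4108 and 4961 CPM in the standard protocol -DMS. For both genes the biotin variation +DMS overlapped the standard -DMS libraries at the top, and the biotin variation -DMS overlapped the standard +DMS libraries at the bottom. The low end of each was the shallow biotin variation -DMS replicate 1, with 9 counts of LHCA1 and 28 of LHCA2.

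**Figure D1:**
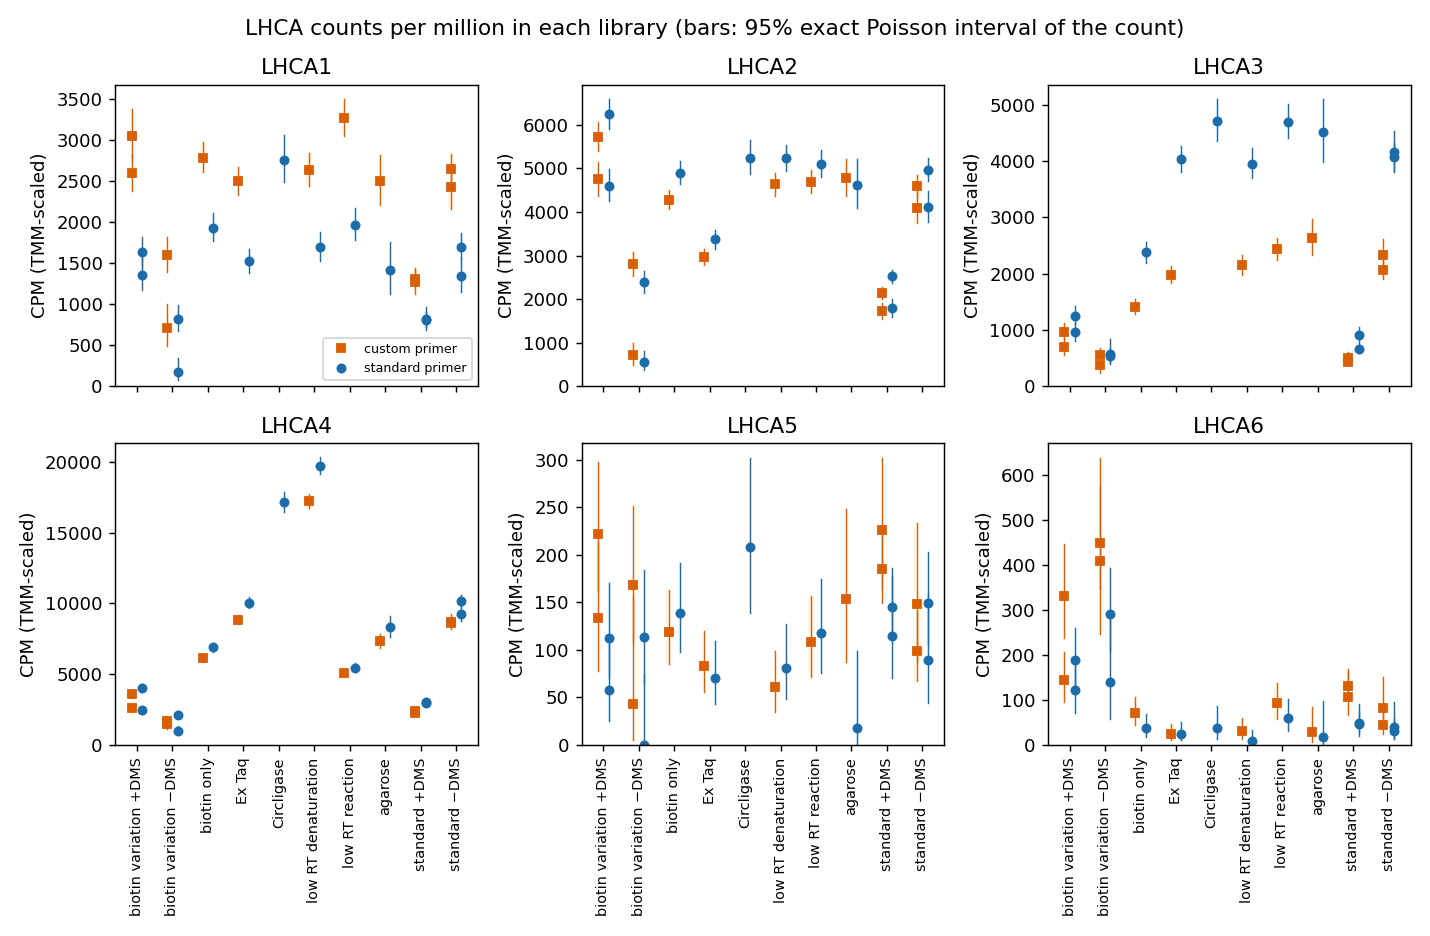
CPM of each LHCA gene (y axes, linear, scaled by TMM factors) in each kind of library (x axis), with one point per library and primer and bars for the exact 95% Poisson interval of the count. The standard -DMS points of LHCA3 (4157 and 4068 CPM) and LHCA4 (9284 and 10175 CPM) stand above those of the biotin variation and the standard +DMS libraries, while LHCA6 is highest in the biotin variation.

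With DMS in the standard protocol, LHCA3 fell and none of the other LHCA loci passed the test. Its log2 change was -2.39 (SE 0.391, 95% interval -3.22 to -1.56), a 5.25-fold lower share of cDNA ends +DMS. The adjusted p was 0.0171 (edgeR quasi-likelihood test with Benjamini-Hochberg adjustment over 6628 loci). LHCA3 was lower in both +DMS libraries than in either -DMS library. It was 1 of 6 loci called in the whole table (0.0905%), all of them lower. LHCA4 had a log2 change of -1.71 (SE 0.378, adjusted p = 0.179), LHCA2 one of -1.07 (SE 0.49, adjusted p = 0.902) and LHCA1 one of -0.91 (SE 0.525, adjusted p = 1.0), and the groups of each did not overlap. LHCA5 (0.11, SE 0.815) and LHCA6 (0.46, SE 0.818) had wide intervals at their low counts.

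The custom-primer readings of the same libraries gave LHCA3 a log2 change of -2.23 (edgeR adjusted p = 0.0104) and LHCA4 one of -1.91 (edgeR adjusted p = 0.00298). LHCA3 had 507 and 431 CPM +DMS in those readings, against 2335 and 2059 CPM -DMS. LHCA4 had 2223 and 2370 CPM +DMS, against 8681 and 8640 CPM -DMS. Both readings therefore placed every +DMS library of these loci below every -DMS library.

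The call for LHCA3 rested on each of 3 libraries. Without standard -DMS replicate 1 its adjusted p was 0.0736, without standard +DMS replicate 1 it was 0.426 and without standard +DMS replicate 2 it was 0.493 (edgeR, log2 changes of -2.36, -2.50 and -2.18), where a lone library left in a group is assumed to vary like the others.

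The loci that fell beside LHCA3 were mostly antenna genes of photosystem II. Of 8 loci listed as LHCB genes, which encode the chlorophyll proteins around photosystem II, 4 were called lower and the list's median log2 change was -3.20, where the median of all loci tested was 0.02. Among them OS03T0592500 had a log2 change of -3.70 (SE 0.512) and OS01T0600900 one of -3.64 (SE 0.528). Of 9 loci listed as nuclear photosystem I core subunits, 0 were called by edgeR or DESeq2, 0 had an unadjusted p under 0.05, and their median was -0.47. The median over the 4 major LHCA loci was -1.39. The 3 Rubisco small subunit loci had log2 changes of 0.53 to 0.67, with 0 called by edgeR or DESeq2 and 1 at an unadjusted p under 0.05.

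In the biotin variation the major LHCA loci lay higher in the +DMS libraries, and none was called. The log2 change was 1.85 for LHCA2 (SE 0.504, adjusted p = 0.117), 1.51 for LHCA1 (SE 0.543, adjusted p = 0.169), 1.04 for LHCA4 (SE 0.376, adjusted p = 0.171) and 0.98 for LHCA3 (SE 0.390, adjusted p = 0.207), all by edgeR. In each of the 4 genes both +DMS libraries lay above both -DMS libraries, and the share of all loci apart in this way was not counted. Of all loci, 58.8% had a lower log2 change than LHCA3 and 74.8% a lower one than LHCA2. The median of all loci was 0.62 in the same comparison, and 9 of 6628 loci were called (0.136%), 2 higher (0.0302%) and 7 lower (0.106%). At an unadjusted p under 0.05 edgeR counted 4 LHCA loci, as against 1217 loci in all, and DESeq2 called 1 (LHCA2, log2 change 1.58, adjusted p = 0.0399). With size factors by RLE or by library totals alone the median of all loci moved to 0.33 and 0.18, and the 4 changes lay between 0.57 and 1.58 and between 0.37 and 1.42. With the custom primer the median was 0.84, and the change of LHCA3, at 0.81, lay below it.

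These values moved with the 2 biotin variation -DMS libraries. Without replicate 2, which leaves the shallow replicate 1 alone, LHCA1 (log2 change 3.04), LHCA2 (3.26) and LHCA4 (1.69) were called (edgeR adjusted p = 0.00656, 0.00579 and 0.0225). In that setting 592 of 6430 loci were called and the median of all loci was 4.37, above all 4 major LHCA changes, so the 3 calls show nothing particular to these loci. Without replicate 1, the changes were 0.86, 1.18 and 0.62 and none was called.

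The DMS effect itself differed between the protocols for LHCA3. The effect in the biotin variation minus that in the standard protocol was 3.37 on the log2 scale (SE 0.550, edgeR adjusted p = 0.0365), and LHCA3 was 1 of 4 loci called (0.0604%), all higher. OS03T0592500 and OS07T0562700 from the LHCB list and OS08T0468100, named here after its values were seen, were the others. The same difference was 2.92 for LHCA2 (SE 0.702, adjusted p = 0.224), 2.75 for LHCA4 (SE 0.533, adjusted p = 0.0808) and 2.41 for LHCA1 (SE 0.754, adjusted p = 0.320), beside a median of 0.64 for all loci. LHCA5 had 0.19 (SE 1.23) and LHCA6 -0.97 (SE 1.09). The custom-primer readings gave LHCA3 a difference of 3.03 (edgeR adjusted p = 0.0247).

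Of the 8 replicated libraries, leaving out any of 5 ended the call of that difference for LHCA3, with edgeR adjusted p = 0.114 (standard -DMS replicate 2), 0.104 and 0.1196 (standard +DMS replicates 1 and 2), and 0.532 and 0.397 (biotin variation +DMS replicates 1 and 2). Its size stayed between 3.05 and 3.49.

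Taken over both protocols, DMS changed no LHCA locus past the threshold. In the 8 replicated libraries edgeR called 7 of 5530 loci (0.127%; 0.0542% higher and 0.0723% lower), with 0 LHCA loci called, 0 at an unadjusted p under 0.05 and 0 by DESeq2. The log2 change of LHCA3 was -0.93 (SE 0.508, adjusted p = 0.591), and those of the other 5 loci ran from -0.49 to 0.25.

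**Figure D2:**
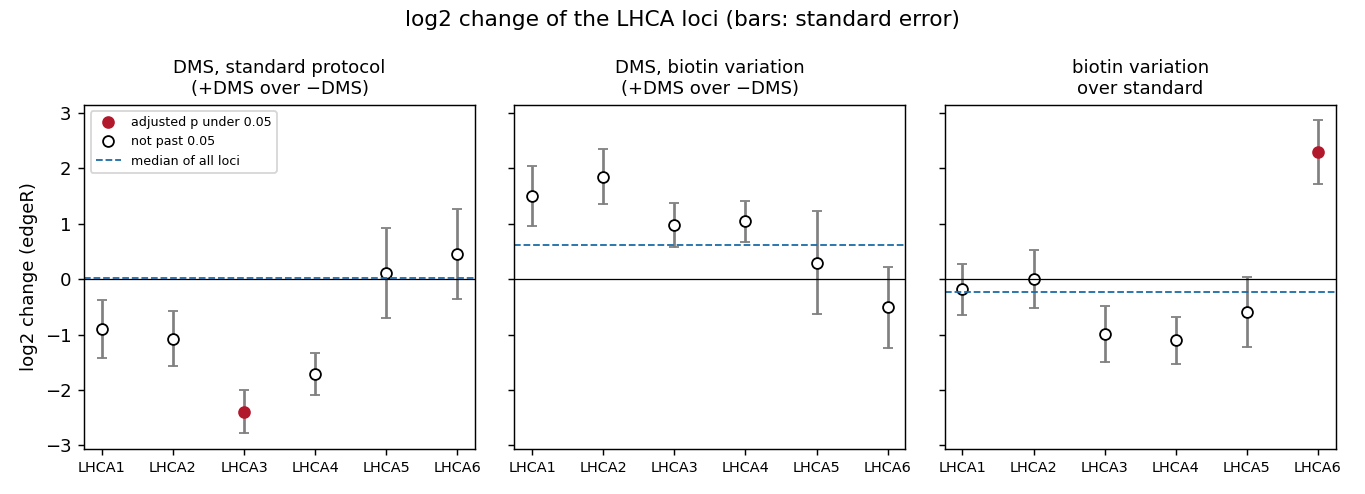
log2 change of each LHCA locus (y axis) with DMS in the standard protocol, with DMS in the biotin variation and between the biotin variation and the standard protocol, with bars for the standard error, filled points for an adjusted p under 0.05 and a dashed line for the median of all loci. LHCA3 (-2.39) is filled at the left and LHCA6 (2.29) at the right. LHCA6 passed the count filter only through the biotin variation, so its filled point is no support for a difference. The major loci change side of 0 between the first and the second panel.

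Without DMS, the biotin variation held less LHCA3 and LHCA4 than the standard protocol did. This comparison within the -DMS libraries was added after the values were seen. LHCA3 was 7.31-fold lower (log2 change -2.87, SE 0.407, edgeR adjusted p = 0.00288), and LHCA4 was 6.20-fold lower (log2 change -2.63, SE 0.393, edgeR adjusted p = 0.00402). They were 2 of 135 loci called lower (2.04% of 6628, beside 0.256% called higher), and the median of all loci was -0.73. By p, 4 and 6 loci ranked before LHCA3 and LHCA4. By size, 21.0% and 22.4% of all loci had a lower log2 change than LHCA3 and LHCA4. Both loci were called in each of 12 alternatives, which left out each -DMS replicate in turn or changed the scaling, filter, tool or reading, with log2 changes of -3.03 to -2.20 for LHCA3 and -3.20 to -2.07 for LHCA4. Without the shallow biotin variation -DMS replicate 1 the changes were -2.91 and -2.21.

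LHCA1 (-1.54, SE 0.543, edgeR adjusted p = 0.103) and LHCA2 (-1.59, SE 0.5002, edgeR adjusted p = 0.0796) also lay lower without overlap and were not called, though 1 and 3 of the 12 alternatives called them. LHCA6 lay higher, at 2.68 (SE 0.814, edgeR adjusted p = 0.0750), without overlap and without a call, and 5 of its 11 alternatives called it. LHCB loci were lower beside them, with 5 of 8 called and a list median of -2.52. The photosystem I core list had 1 of 9 called lower and a median of -0.71, close to that of all loci. A Rubisco small subunit locus, OS12T0274700, was called higher in the same comparison, by 1.51 on the log2 scale (SE 0.290, edgeR adjusted p = 0.0192). The part that streptavidin recovery, library depth or the loss of other transcripts had in these values was not tested.

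With DMS, the biotin variation and the standard protocol did not differ by the test at any locus (edgeR, 0 of 6628 called, 0%, with 975 at an unadjusted p under 0.05, 2 of them LHCA loci). LHCA6 had a log2 change of 1.72 (SE 0.751, 95% interval 0.13 to 3.30, adjusted p = 0.307), LHCA2 one of 1.33 (SE 0.493, 95% interval 0.29 to 2.37, adjusted p = 0.267), LHCA1 one of 0.88 (SE 0.525), LHCA3 one of 0.50 (SE 0.376, 95% interval -0.30 to 1.29) and LHCA4 one of 0.12 (SE 0.369, 95% interval -0.66 to 0.90). The intervals of LHCA3 and LHCA4 leave out the fall seen without DMS. Over both DMS states together LHCA4 had -1.10 (SE 0.422, adjusted p = 0.125), LHCA3 had -0.99 (SE 0.505, adjusted p = 0.240), LHCA1 had -0.18 and LHCA2 had 0.00, none called, beside a median of -0.23.

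LHCA6 had its highest levels in the biotin variation, at low counts. It had 189 and 122 CPM in the biotin variation +DMS, 140 and 290.5 CPM in the biotin variation -DMS, 46.0 and 48.2 CPM in the standard protocol +DMS, and 40.4 and 29.8 CPM in the standard protocol -DMS. Each of the 4 biotin variation libraries lay above each of the other 10 libraries, whose highest value was 58.7 CPM. The counts behind these values were 37, 17, 7 and 41 in the biotin variation, against 8, 20, 5 and 8 in the standard protocol. Its log2 change over both DMS states was 2.29 (SE 0.577, 95% interval 1.08 to 3.50, edgeR adjusted p = 0.0393), where 2.08% of 5530 loci were called higher and 4.1% in either direction.

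LHCA6 passed the filter on low counts in this fit only through the biotin variation, since 1 standard library reached 10 counts, so the filter chose it on the side where it is high and the call is no support for a difference. With no filter the log2 change was 1.89 and the call was lost (edgeR adjusted p = 0.137). The custom-primer readings, which hold 327 counts of LHCA6 in 13 libraries, gave 143 and 330.1 CPM in the biotin variation +DMS and 409 and 449.8 CPM in the biotin variation -DMS, against 105 and 131 CPM in the standard protocol +DMS and 82.2 and 43.2 CPM in the standard protocol -DMS. All 4 standard libraries held 10 counts or more in those readings (21 and 63 +DMS, 10 and 14 -DMS), the groups did not overlap, and the log2 change was 1.90 (edgeR adjusted p = 0.00876). With the standard primer the call ended when any library but the biotin variation -DMS replicate 1 was left out, with log2 changes of 1.78 to 2.41 and edgeR adjusted p = 0.0776 (biotin variation +DMS replicate 1), 0.0873 (biotin variation +DMS replicate 2), 0.107 (biotin variation -DMS replicate 2), 0.111 and 0.102 (standard +DMS replicates 1 and 2), and 0.141 and 0.162 (standard -DMS replicates 1 and 2).

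The biotin only library, which had biotin without streptavidin, lay at the standard level of LHCA6. It had 37.5 CPM of LHCA6, 1.07 times the mean of the 2 standard -DMS libraries (95% counting interval 0.513 to 1.97). In the same library LHCA3 had 2380 CPM, 0.579 times the standard -DMS mean (0.534 to 0.626), and LHCA4 had 6884 CPM, 0.708 times (0.676 to 0.741). These intervals cover the counting error of the single library only and take each summed count as a separate read. They would be too narrow if reads were counted at several transcripts of a locus.

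LHCA5, the other minor gene, had 112 and 57.5 CPM in the biotin variation +DMS, 0 and 113 CPM in the biotin variation -DMS, 115 and 144 CPM in the standard protocol +DMS, and 89.0 and 149 CPM in the standard protocol -DMS. Both biotin variation groups lay below the standard +DMS libraries by a narrow margin (highest 112 and 113 against 115 CPM), and the other groups overlapped. In the custom-primer readings the biotin variation +DMS overlapped the standard +DMS. There the standard +DMS lay above the standard -DMS (185 to 226 against 98.8 to 148 CPM). No comparison of DMS or protocol called LHCA5. The 0 belonged to the shallow biotin variation -DMS replicate 1, where 3 counts, the limit that a count of 0 allows, are 60.1 CPM (the exact 95% Poisson interval drawn in the plot of levels reaches 73.9 CPM). Between the protocols its log2 change was -0.59 (SE 0.633, 95% interval -1.92 to 0.74).

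A transcript of LHCA5, OS02T0764500-02, was rarely counted in the biotin variation, a pattern picked out after its values were seen and not tested. It took 0 of 46 LHCA5 counts in the 4 biotin variation libraries, which allows a share of up to 6.52% by 3 counts (exact 95% interval 0 to 7.71%), against 31 of 131 counts (23.7%, exact 95% interval 16.7 to 31.9%) in the 4 standard libraries. In the custom-primer readings it took 2 of 88 counts (2.27%, 0.276 to 7.97%) in the biotin variation, against 26 of 184 (14.1%, 9.44 to 20.02%) in the standard protocol. The counts of a group are pooled over libraries, and the intervals cover counting error only, taking each count as a separate read. The LHCA3 transcript OS02T0197600-02 took 24.5% of LHCA3 counts in the biotin variation (20.8 to 28.6%), against 30.4% in the standard protocol (28.4 to 32.4%).

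The single libraries can be set beside the standard -DMS libraries as values only, since each kind had no replicate check. LHCA3 stayed between 3957 and 4717 CPM in the single libraries other than biotin only, 0.962 to 1.15 times the standard -DMS mean. LHCA4 ranged more widely. It reached 19755 CPM with low RT denaturation, 2.03 times the standard -DMS mean (95% counting interval 1.97 to 2.09), and 17175 CPM with Circligase, 1.77 times. With low RT reaction it was 5447 CPM, 0.560 times (0.527 to 0.594), and with Ex Taq 1.03 times.

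Low RT denaturation was a kind in which LHCA loci passed a 2-fold difference. LHCA4 did so upward, where 5.70% of 3211 loci that averaged 10 counts or more did, and LHCA6 did so downward, at 0.255 times with 2 counts (0.0309 to 0.923), where 11.1% of loci did. The custom primer gave LHCA4 there 1.99 times (1.93 to 2.05). In agarose LHCA5 was 0.149 times with 1 count (0.00376 to 0.828), where 22.6% of loci passed 2-fold downward and 5.45% upward, and the custom primer gave 1.24 times (0.708 to 2.01) from 16 counts. With the standard primer no LHCA locus passed 2-fold in the other 4 kinds. With the custom primer LHCA6 did so downward in Ex Taq, at 0.378 times with 8 counts (0.163 to 0.744). It also did so in low RT denaturation, at 0.485 times (0.209 to 0.955), and in agarose, at 0.457 times with 3 counts (0.0943 to 1.34). LHCA5 did so downward in low RT denaturation, at 0.493 times (0.282 to 0.8004). In those readings 5.68%, 7.28% and 7.16% of loci had a lower ratio than LHCA6, and 7.94% a lower one than LHCA5. The share of all loci past 2-fold with the custom primer was not counted. Of all loci with the standard primer, 7.32% passed it upward and 7.75% downward in biotin only, 9.06% and 13.6% in Ex Taq, 11.4% and 16.8% in Circligase, and 6.23% and 10.4% in low RT reaction.

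The sequencing primer moved 5 of the 6 LHCA loci, in opposite directions. LHCA3 was lower with the custom primer, at a log2 change of -0.91 by edgeR (SE 0.0635, adjusted p = 2.62e-15), and lay lower in 12 of 13 libraries. LHCA1 was higher, by 0.60 on the log2 scale (SE 0.0615, edgeR adjusted p = 1.88e-10), in 13 of 13 libraries. LHCA6 was higher by 0.65 (SE 0.174, edgeR adjusted p = 0.00302) in 11 of 13. LHCA4 (-0.33, SE 0.0510, edgeR adjusted p = 1.40e-06) was lower in 11 of 13 and LHCA2 (-0.24, SE 0.0488, edgeR adjusted p = 1.71e-04) in 9 of 13. LHCA5 was not called (0.18, SE 0.165, edgeR adjusted p = 0.369). These stand against a background in which 39.4% of 8897 loci were called, 18.3% higher and 21.1% lower.

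The direction of the primer change went with the number of transcripts a locus has in the tables. Over all loci tested, the median log2 change was 0.41 for the 5522 loci listed with 1 transcript, -0.31 for 2499 loci with 2, -0.68 for 666 loci with 3 and -1.05 for 169 loci with 4. LHCA1 and LHCA6 have 1 transcript, LHCA2, LHCA4 and LHCA5 have 2, and LHCA3 has 3. Within its class LHCA3 lay above 27.5% of loci, LHCA1 above 76.1% and LHCA5 above 88.4%. The LHCA3 transcripts OS02T0197600-01 and OS02T0197600-03 held equal counts in 1 of 13 libraries with the custom primer, against 8 of 14 with the standard primer. The rule by which reads that match several transcripts of a locus were counted is not given in the sources used here, and its part in these values was not tested.

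**Figure D3:**
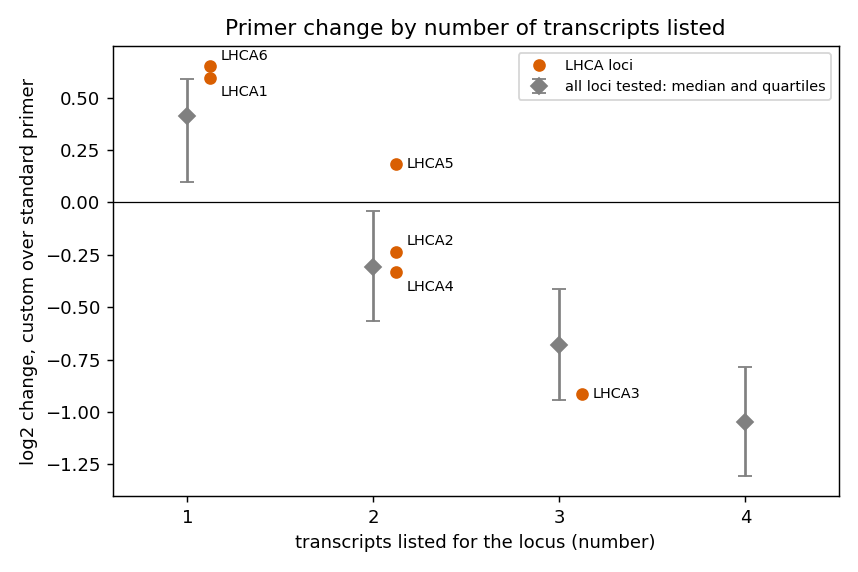
Primer change (y axis, log2 of custom over standard primer) against the number of transcripts listed for a locus (x axis), with diamonds and bars for the median and quartiles of all loci and points for the LHCA loci. The medians step down from 0.41 at 1 transcript to -1.05 at 4, LHCA1 and LHCA6 lie just above the upper quartile of their class, and LHCA3 lies below the median of its own.

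The balance of major to minor LHCA genes was smallest in the biotin variation -DMS. Counts of LHCA1 to LHCA4 per count of LHCA5 and LHCA6 were 43.7 and 52.0 in the biotin variation +DMS, 16.6 and 14.5 in the biotin variation -DMS, 40.5 and 36.1 in the standard protocol +DMS, and 146 and 117 in the standard protocol -DMS. The point values of the 4 groups did not overlap. Their means were 47.8 ± 5.88, 15.5 ± 1.46, 38.3 ± 3.13 and 131.6 ± 20.4 (SD, n = 2 each), given in the same order and as a description, without a test. The exact intervals of the minor share of LHCA counts set only the standard -DMS group apart. They were 1.71 to 2.88% and 1.22 to 2.77% in the biotin variation +DMS. In the standard protocol +DMS they were 1.61 to 3.46% and 2.14 to 3.35%. The biotin variation -DMS replicate 1, with 7 minor counts, reached both (2.32 to 11.4%). With counts per listed transcript the +DMS ratios overlapped, at 29.3 and 34.4 (biotin variation) against 34.0 and 31.3 (standard). The ratio is of counts and not per length, so it ranks libraries and says nothing of how many mRNA molecules each gene had.

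The major side of the ratio moved more plainly than the minor side. The 4 major loci took 0.976% of all counts in the biotin variation +DMS, 0.499% in the biotin variation -DMS, 0.676% in the standard protocol +DMS and 1.96% in the standard protocol -DMS. The minor loci took 0.0208 ± 0.0068%, 0.0327 ± 0.0131%, 0.0178 ± 0.0025% and 0.0151 ± 0.0032% in those groups (SD, n = 2 each). The 2 standard groups overlapped in this share, and the biotin variation +DMS overlapped every other group. The biotin variation -DMS lay above both standard groups. With the custom primer the minor share was 0.0329 ± 0.0006% in the standard protocol +DMS and 0.0179 ± 0.0059% in the standard protocol -DMS. LHCA6 made up 62.7 to 100% of the minor counts in the 4 biotin variation libraries, and 16.7 to 31.2% in the 4 standard libraries. The 100% rests on 7 counts. In the custom-primer readings these shares were 39.2 to 90.5% and 30.4 to 41.4%, so that the protocols overlapped. With the custom primer the ratio averaged 29.5, 8.96, 18.5 and 101 in the same order, so that the biotin variation -DMS stayed lowest and the standard -DMS highest.

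Among the single libraries the ratio was 91.2 in biotin only, 199 in Ex Taq, 122 in Circligase, 342 in low RT denaturation and 97.7 in low RT reaction. The agarose library gave 535.5, which rests on 2 minor counts, and its custom-primer reading gave 94.9 from 19. All 6 lay above the 6 libraries with DMS or streptavidin in the standard-primer readings.

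**Figure D4:**
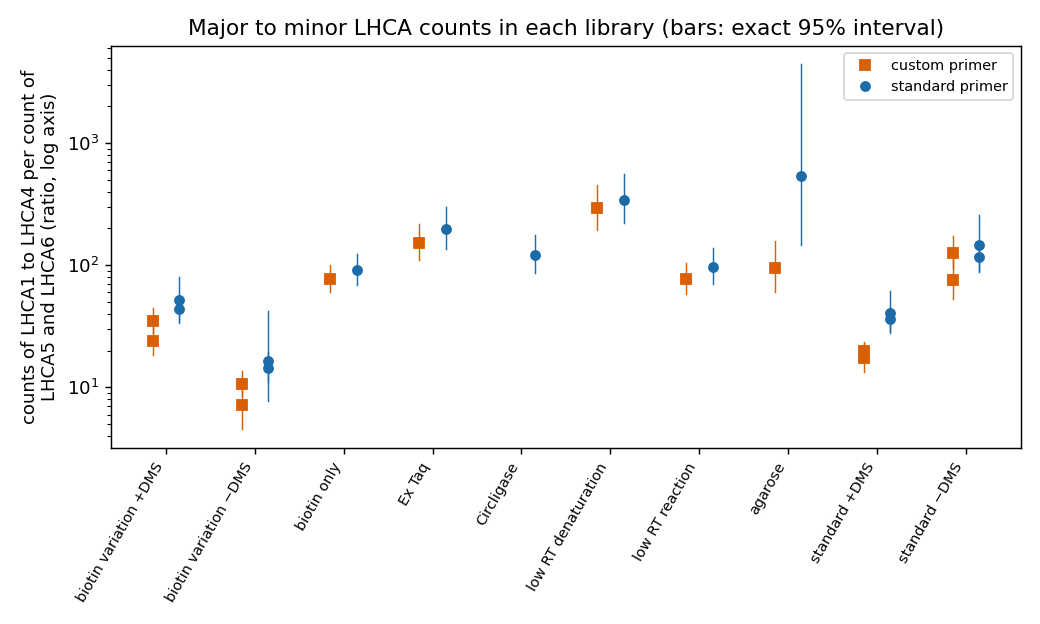
Counts of LHCA1 to LHCA4 per count of LHCA5 and LHCA6 (y axis, log scale) in each library by kind (x axis), with bars for the exact 95% interval from the minor share. The biotin variation -DMS libraries (16.6 and 14.5 with the standard primer) lie lowest, and the standard -DMS libraries (146 and 117) lie above all the others that have replicates.

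Across the 14 standard-primer libraries the 4 major genes varied together. On the log2 CPM scale LHCA1 and LHCA2 had a Pearson r of 0.956 and LHCA3 and LHCA4 one of 0.896, and the other 4 pairings of the major genes had 0.655 to 0.8005. LHCA6 ran against them, with r of -0.785 for LHCA4 and -0.350 for LHCA2 at the ends. With the custom primer (13 libraries) the first pairs had 0.954 and 0.907 and the other 4 had 0.633 to 0.774, while LHCA6 had -0.882 with LHCA4 and -0.456 with LHCA2. They are descriptions: the same libraries, depths and scaling factors enter every value, and the libraries fall into kinds.

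Of 440 loci that averaged 50 counts or more in both tables, those most like the sum of LHCA1 to LHCA4 were OS04T0457000, with r of 0.963 over 14 standard-primer libraries and 0.931 over 13 custom-primer libraries, OS03T0592500 (0.943 and 0.911) and OS08T0200300 (0.934 and 0.918). The first and second of these are on the LHCB list. By the same measure LHCA5 had 0.507 and -0.06, and LHCA6 had -0.676 and -0.761.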

How the data were processed

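The authors deposited whole-number counts for each transcript, in a separate table for each sequencing primer, and the counts were used as they stand. Per the submitters' processing notes, cutadapt and Bowtie2 were run. Version, build, annotation and counting rule were not given in the sources used here. By the labels, the 27 samples are readings of 14 libraries, and 0 columns belonged to other samples. Counts of all transcripts of a locus were added up. Library totals spanned 29777 to 410068 with the standard primer and 27118 to 468337 with the custom primer. Poisson and binomial intervals cover counting error only and take each summed count as a separate read. They would be too narrow if reads were counted at several transcripts of a locus. Intervals of log2 changes for DMS and protocol come from the spread between libraries. Standard errors of the primer change come from the spread between readings of the same libraries.

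A locus entered a test where 2 or more of the libraries in the fit held 10 or more counts. The test was edgeR 4.0.16's quasi-likelihood test in R 4.3.3, with TMM factors, Benjamini-Hochberg adjustment over all loci and a threshold of 0.05. DMS within a protocol, the difference of its effects and protocol within a DMS state came from the fit of all 14 libraries, each kind with its own mean (4 residual degrees of freedom). DMS and protocol over both states came from the 8 replicated libraries and 2 terms. The primer was tested over 13 libraries with the library as a block, as the letter in the title names the library. Standard errors are the log2 change over the root of F. All 6 LHCA loci passed the filter in every comparison and all are named. The scripts were tested on simulated data. The members and the lists were chosen with earlier results of these data known. Membership of a list comes from general knowledge, since 0 of the 6 identifiers matched the reference table. No lengths were used, so levels were not compared between genes. The alternatives were RLE factors, totals without factors, filters of 0 and 50 counts, DESeq2 1.42.0, transcripts in place of loci, the custom-primer counts, the sum of readings, a replicate block, and each library left out. Chosen after seeing the data were 1 transcript per locus, counts per listed transcript, and protocols compared within a DMS state.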

Additional observations from a re-analysis of the deposited data

Results flagged for a closer look

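LHCA3 responded to DMS differently in the 2 protocols. The difference of the log2 changes, biotin variation minus standard protocol, was 3.37 (SE 0.550, edgeR quasi-likelihood test over 6628 loci, adjusted p = 0.0365). LHCA3 averaged 1107 CPM +DMS and 563 CPM -DMS in the biotin variation, and 785 CPM +DMS and 4113 CPM -DMS in the standard protocol. The edgeR adjusted p ran up to 0.532 over its 18 alternatives, and 8 of them kept it past the threshold. The standard -DMS libraries stood far from the other 3 groups, so the difference and the fall without DMS in the biotin variation (log2 change -2.87) share those libraries. Streptavidin recovery, library depth and the low totals of the biotin variation -DMS libraries (29777 and 135804 counts) go with the groups, and their part was not tested.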

How the results depend on the processing

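The log2 change of LHCA3 with DMS in the standard protocol kept its sign in 14 of 14 alternatives and was called in 10, and LHCA4 was called in 5 of 14. For DMS in the standard protocol, 1 LHCA locus was called. RLE size factors, library totals alone, a minimum of 50 counts, DESeq2 and the custom primer each gave 2. Over all loci these settings called 13, 15, 31 (of 1208 tested), 77 and 54, in that order, against 6 in the main fit. Transcripts in place of loci gave 4, where 58 transcripts were called in all. The calls in all rose in the same settings, and whether the added LHCA calls are particular to these loci was not tested. The sum of both readings gave 0 LHCA calls, and leaving out a replicate gave 0 to 1. For DMS in the biotin variation the count of 0 became 1 with no filter and with DESeq2, and 0 to 3 without a replicate. For the difference of the DMS effects the count of 1 became 2 with RLE size factors, library totals alone or the custom primer, 3 with no filter or DESeq2, 5 with transcripts in place of loci, 0 with a minimum of 50 counts, the sum of readings, 1 transcript per locus or only the 8 replicated libraries, and 0 to 4 without a replicate. For the biotin variation against the standard protocol the count of 1 became 2 with no filter (LHCA3 and LHCA4, with LHCA6 no longer called), with transcripts in place of loci and in the -DMS libraries alone, 0 with a minimum of 50 counts (at which LHCA6 was not tested) and in the +DMS libraries alone, and 0 to 1 without a replicate. LHCA6 was called in 7 of its 18 alternatives. Apart from the custom-primer counts and the sum of readings, those 7 keep the filter that LHCA6 passed only through the biotin variation. Such calls are no support for a difference. DMS over both protocols gave 0 LHCA loci throughout. For the primer, 5 loci were called in 19 alternatives, 4 with no replicate block, and 9 transcripts in place of loci. With the replicate number as a block, DMS in the standard protocol still called 1 LHCA locus, while the difference of DMS effects (LHCA3 adjusted p = 0.109, and 0.116 in the same 8 libraries with no block) and the protocol comparison (LHCA6 adjusted p = 0.0704) called 0. The deviations of same-numbered libraries correlated at 0.17 between standard -DMS and standard +DMS, and at -0.06 to -0.01 between the other kinds. Whether same-numbered standard libraries share a source was not tested.

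The ratio of major to minor counts moved with the reading and with the transcripts summed. With custom-primer counts, 1 transcript per locus and counts per listed transcript it was 29.5, 27.4 and 31.9 in the biotin variation +DMS, 8.96, 9.08 and 8.80 in the biotin variation -DMS, 18.5, 25.3 and 32.6 in the standard protocol +DMS, and 101, 90.7 and 107 in the standard protocol -DMS. A ratio per length was planned and not run, as no lengths were used here. Over all loci the calls ranged with the setting from 0 to 77 (main 6) for DMS in the standard protocol, 0 to 592 (main 9) in the biotin variation, 0 to 321 (main 4) for their difference, 0 to 184 (main 7) for both protocols, 0 to 901 (main 227) for the protocol and 1361 to 5310 (main 3508) for the primer. Depth limits LHCA6 most, with a median of 8 counts per library.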
